A study of Mus musculus with 6 samples.

Results

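The chemokine family of secreted ligands and their receptors was followed in whole mouse liver in which hepatocytes had lost Dicer. The family was taken as every gene row whose symbol consists of Ccl, Cxcl, Cx3cl, Xcl, Ccr or Cxcr, a number and at most 1 further letter. That rule found 54 of the 50600 genes in the tables, 38 ligands and 16 receptors, and used no measured value. RNA from frozen liver of C57BL/6 mice at 1 month of age was sequenced in 3 samples of genotype Dicerloxp/loxp;Alb-cre (Dicer LKO) and in 3 control samples of genotype Dicerloxp/loxp. All 6 samples therefore carried the loxP-flanked Dicer alleles, and the groups differed in the Cre transgene. Its albumin promoter is active in hepatocytes and in their progenitors, so endothelial, stellate and immune cells are not its target. The labels do not state whether every sample came from its own animal, and p-values here reflect sample-to-sample spread, some of which may be technical.

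Chemokines are small secreted proteins that guide white blood cells along gradients. They bind G protein-coupled receptors that signal mainly through Gi proteins, and they are grouped as C, CC, CXC and CX3C ligands by the spacing of their first cysteines. Inflammatory members such as Cxcl1 and Ccl2 are induced by NF-kB, and Cxcl9, Cxcl10 and Cxcl11 by interferons. Homeostatic members such as Cxcl12 are made constantly by stromal and endothelial cells. In liver they draw monocytes, neutrophils and lymphocytes into the sinusoids.

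The promoters of the members that the results turn on are shown first, as RefSeq sequences of build GRCm38.p6 running from 250 bases before the start site to 50 after it. Capitals mark matches to the NF-kB motif (10 bases, either strand), to the interferon response motif (GAAA, any 2 bases, GAAA, either strand) or to the TATA motif (TATAAA, sense strand). Cxcl1 and Cxcl10 were chosen as inflammatory ligands with a match to NF-kB, Cxcl14, Cx3cl1 and Cxcr4 as the members with large differences between the groups. The windows are chr5:90890995-90891294 (plus strand) for Cxcl1, chr5:92348840-92349139 (minus) for Cxcl10, chr13:56296502-56296801 (minus) for Cxcl14, chr8:94771930-94772229 (plus) for Cx3cl1 and chr1:128592250-128592549 (minus) for Cxcr4.
Cxcl1: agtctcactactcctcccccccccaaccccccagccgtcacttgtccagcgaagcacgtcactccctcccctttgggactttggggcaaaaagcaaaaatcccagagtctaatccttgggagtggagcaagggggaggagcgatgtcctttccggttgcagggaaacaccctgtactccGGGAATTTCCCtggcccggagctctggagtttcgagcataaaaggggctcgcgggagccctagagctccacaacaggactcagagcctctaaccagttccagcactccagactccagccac
Cxcl10: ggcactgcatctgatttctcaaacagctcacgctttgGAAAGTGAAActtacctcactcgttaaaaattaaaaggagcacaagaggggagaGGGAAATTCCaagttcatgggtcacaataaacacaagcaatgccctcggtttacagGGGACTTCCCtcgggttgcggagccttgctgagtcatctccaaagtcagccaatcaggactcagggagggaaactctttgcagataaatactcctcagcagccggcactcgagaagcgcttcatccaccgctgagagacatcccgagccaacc
Cxcl14: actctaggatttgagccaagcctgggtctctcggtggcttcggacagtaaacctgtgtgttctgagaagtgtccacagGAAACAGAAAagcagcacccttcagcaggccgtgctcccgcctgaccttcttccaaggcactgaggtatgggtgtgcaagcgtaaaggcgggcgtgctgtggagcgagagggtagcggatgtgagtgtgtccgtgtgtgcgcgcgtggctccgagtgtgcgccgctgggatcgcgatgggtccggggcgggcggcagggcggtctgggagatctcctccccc
Cx3cl1: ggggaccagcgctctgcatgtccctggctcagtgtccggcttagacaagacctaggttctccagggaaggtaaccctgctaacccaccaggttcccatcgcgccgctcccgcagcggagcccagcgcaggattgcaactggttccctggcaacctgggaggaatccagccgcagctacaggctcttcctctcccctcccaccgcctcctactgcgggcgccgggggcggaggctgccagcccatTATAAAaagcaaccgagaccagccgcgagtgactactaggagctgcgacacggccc
Cxcr4: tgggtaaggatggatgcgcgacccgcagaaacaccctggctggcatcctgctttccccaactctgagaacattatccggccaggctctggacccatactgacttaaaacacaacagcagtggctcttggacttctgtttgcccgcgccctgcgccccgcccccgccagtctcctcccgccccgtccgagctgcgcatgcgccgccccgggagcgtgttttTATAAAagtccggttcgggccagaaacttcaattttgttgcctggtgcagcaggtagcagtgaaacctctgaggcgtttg

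A RefSeq promoter was found for 39 of the 54 members. The NF-kB motif stood in 9 of the 39 (23.1%), against 5.14% of all 27025 genes with a promoter in the table. It stood in 4 of the 19 members that had both a promoter and enough reads to be tested. The rest of the 9 had too few reads for a test. Among the 9 were the neutrophil attractants Cxcl1, Cxcl2 and Cxcl3, which all lie on chromosome 5 and share the bases capitalised in Cxcl1. They began 71 bases before the start site in Cxcl1, 97 in Cxcl2 and 73 in Cxcl3, as overlapping matches on opposite strands. The TATA motif stood in 10 members (25.6%), against 9.77% of all genes, and the interferon response motif in 3 members (7.69%), against 3.99%. These are matches of letters, and whether a factor binds there was not measured.

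Of the 54 members, 25 passed the filter on low counts and were tested. These were 18 ligands and 7 receptors. The other 29, namely 20 ligands and 9 receptors, were near the detection limit and are described at the end. A gene can pass this filter through 1 group alone, so counts over the 25 describe them and support no claim about the family. Dicer LKO libraries held 22257541 to 25049749 counts, and control libraries 14141973 to 22152506, with control replicate 3 the shallowest. The family took 8798 to 10282 of these counts in Dicer LKO libraries and 4880 to 8916 in control libraries. Mitochondrial genes took 10.2% of the counts in control replicate 3, and 4.62% to 6.46% in each other library. The part of that difference in the family's values was not tested. Dicer1 itself stood at 24.4 to 31.2 CPM (counts relative to the library size after TMM scaling) in Dicer LKO and 42.5 to 69.2 CPM in the controls, in the direction of the labels. Its log2 fold change was -0.99 (edgeR adjusted p = 0.0622). Markers of the labelled tissue were abundant, the summed CPM of 6 hepatocyte genes being 55539 to 67775 in Dicer LKO and 37096 to 69416 in control libraries. Erythroid markers were higher in Dicer LKO (6 of 6 called, summed CPM 1074 to 2057, against 197 to 277 in the controls), and 7 heart muscle markers, of which 4 were tested and 0 called by edgeR or DESeq2 (0 at an unadjusted p under 0.05), summed to 0.524 to 9.92 CPM in Dicer LKO and 11 to 21.7 CPM in the controls. Their part in the family's values was not tested.

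Measured per length in TPM (transcripts relative to the library sum, as deposited), the ligand output of the liver was dominated by a pair of genes in both groups. Cxcl12, the ligand of Cxcr4 that retains stem cells and lymphocytes in stromal niches, made up 41.6% to 53.1% of the summed ligand TPM in Dicer LKO libraries and 37.6% to 57.3% in control libraries. Ccl9, a CC ligand of rodents that acts through Ccr1, added 16.1% to 24.2% in Dicer LKO and 19.7% to 31.8% in control libraries. Summed over ligands, Dicer LKO libraries had 143, 146 and 156 TPM and controls had 149, 166 and 112 TPM (always in order of replicate number), so the groups overlapped. Receptors were far scarcer, with a summed TPM of 3.62, 5.64 and 7.38 in Dicer LKO against 2.74, 4.03 and 2.3 in the controls. The ranges of these receptor sums overlapped, since control replicate 2 lay above Dicer LKO replicate 1.

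**Figure D1:**
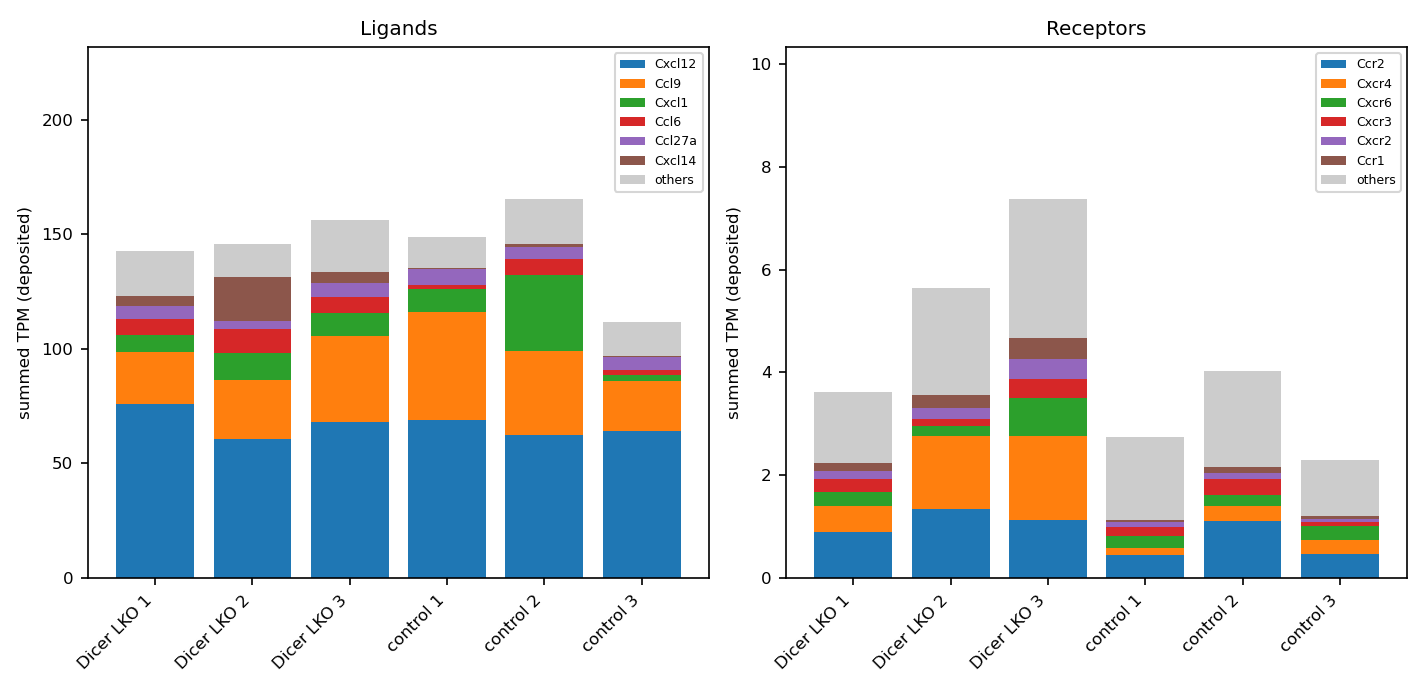
Summed deposited TPM of the 38 ligands (left) and the 16 receptors (right) in each library, split into named genes and all others (grey). Cxcl12 and Ccl9 form most of each ligand bar, and the Cxcl14 segment is widest in Dicer LKO replicate 2, at 19.07 TPM.

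By edgeR's quasi-likelihood test with Benjamini-Hochberg adjustment over all 14314 genes tested, 0 of the 25 tested members passed an adjusted p of 0.05, while 1.29% of all genes tested did. Adjusted p-values ran from 0.0773 to 0.964. At an unadjusted p under 0.05, 8 members were higher in Dicer LKO, against a background of 8.88% of genes, and 3 were lower, against 12.1%. DESeq2 called 5 of the 25, all higher, among 1160 genes that it called in all. They were Cxcl14, Cxcl16, Cx3cl1, Ccr1 and Cxcr4. The libraries of the groups did not overlap for 9 higher members (12.7% of all genes tested) and for 3 lower members (15.4%). The 9 include Ccl6, whose groups all but touch. Positive log2 fold changes were found for 16 of the 25, against 48.6% of all genes tested, and the median was 0.67 against -0.01. All 7 tested receptors had positive values (median 0.88), while the 18 tested ligands were divided into 9 positive and 9 negative (median 0.01).

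**Figure D2:**
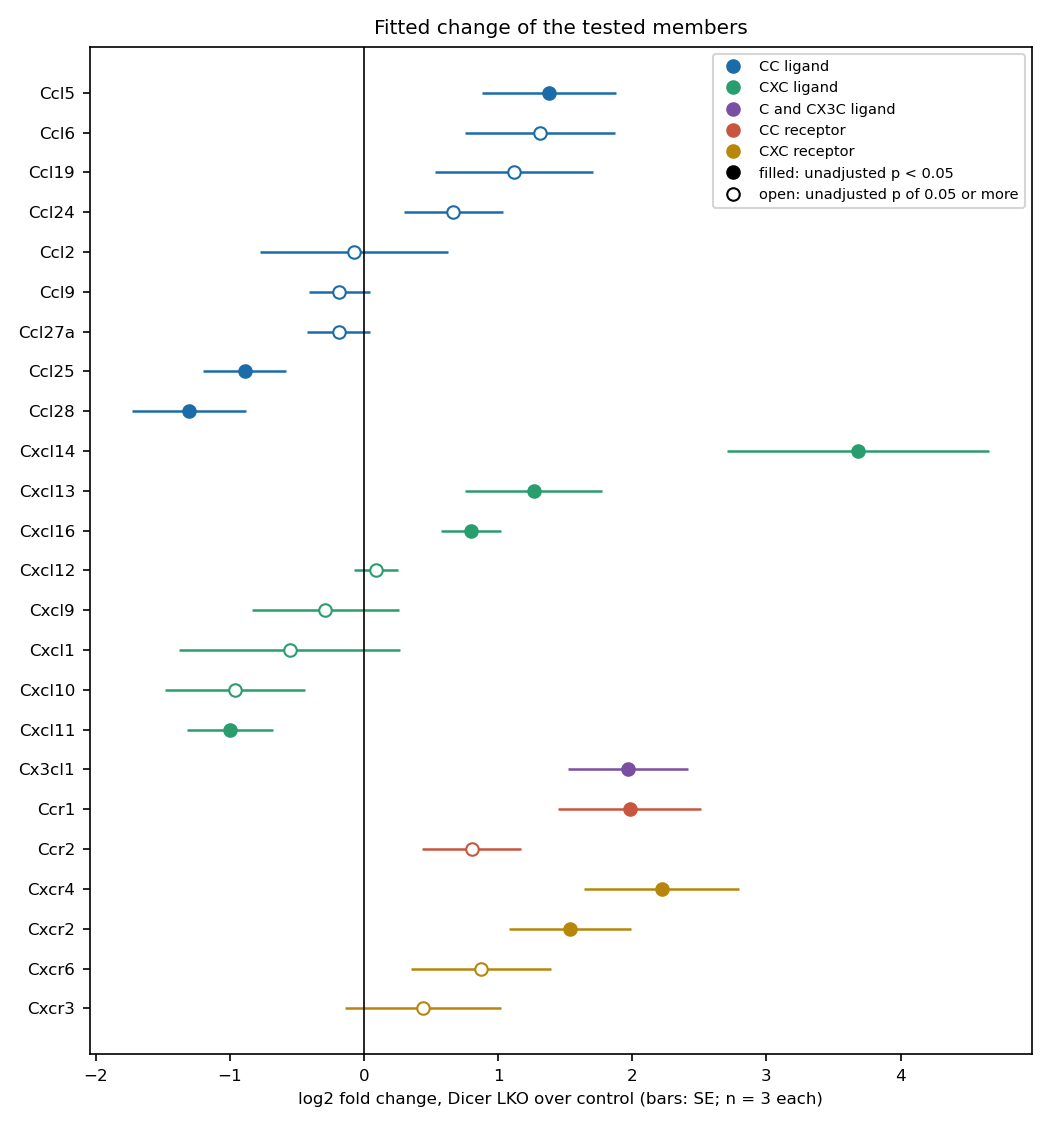
Log2 fold change (Dicer LKO over control, horizontal axis) of 24 tested members with its SE, grouped and coloured by role, with 3 libraries a group. Filled points have an unadjusted p under 0.05, and all 6 receptors drawn at the bottom lie right of 0.

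Cxcl14 had the largest difference of the tested members. This CXC ligand attracts monocytes and dendritic cells and is made by epithelia. Its level was 9.82, 49.1 and 10.7 CPM in Dicer LKO, against 0.721, 3.65 and 0.956 CPM in the controls. Replicate 2 was the highest library in each group, and all Dicer LKO values lay above all control values. The mean was 23.2 ± 22.4 CPM in Dicer LKO and 1.78 ± 1.63 CPM in the controls (SD, n = 3 each). With a log2 fold change of 3.68 (SE 0.98) its adjusted p was 0.124 by edgeR, and 0.00645 by DESeq2. Each SE was taken from edgeR's F statistic, as the size of the log2 fold change over the root of F. Without Dicer LKO replicate 2 the value was 2.55, and without control replicate 2 it was 4.82. In these whole-tissue samples, more cells of a type and more RNA per cell cannot be told apart, for this and every other member.

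Cxcl16 is a transmembrane ligand of Cxcr6 that holds natural killer T cells in the liver sinusoid. It stood at 11.7, 9 and 14.4 CPM in Dicer LKO, against 8.02, 6.72 and 5.42 CPM in the controls. Every Dicer LKO library exceeded every control, with a mean of 11.7 ± 2.69 CPM in Dicer LKO and 6.72 ± 1.3 CPM in the controls (SD, n = 3 each). The fitted difference was 0.80 (SE 0.22, adjusted p = 0.109 by edgeR, 0.0423 by DESeq2). Its gene overlaps Zmynd15 on the other strand in GENCODE M21, and the strand setting of the libraries is not given in the sources used here.

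Cxcl13, which draws B cells to follicles, averaged 1.95 ± 0.781 CPM in Dicer LKO and 0.8 ± 0.514 CPM in the controls (SD, n = 3 each). Control replicate 2 (1.39 CPM) lay above Dicer LKO replicate 2 (1.05 CPM), so the groups overlapped (log2 fold change 1.27, edgeR adjusted p = 0.212). Cxcl12 was measured at 277, 239 and 237 CPM in Dicer LKO, against 250, 246 and 213 CPM in the controls. These values overlapped, with a log2 fold change of 0.09 (SE 0.16, adjusted p = 0.795 by edgeR). With library totals as the scale its sign turned, to -0.03. Summed over 6 markers each, its known sources gave 308 to 415 CPM in Dicer LKO and 248 to 293 CPM in the controls for sinusoidal endothelium, and 292 to 362 CPM against 253 to 316 CPM for stellate cells. In each list 4 markers were higher and 2 lower, with 0 called by edgeR. DESeq2 called Lyve1 and Clec4g higher and Dnase1l3 lower in the endothelial list, and Pdgfrb and Hgf higher in the stellate list. The stellate marker Des was at 62.5 CPM in control replicate 3, against 3.43 and 4.32 CPM in the other controls.

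The 3 ligands of Cxcr3, which recruit T and NK cells, all had negative log2 fold changes, and none passed the test by edgeR. Cxcl11 stood at 1.05, 1.48 and 0.797 CPM in Dicer LKO and 2.48, 2.35 and 1.78 CPM in the controls. All control libraries were above all Dicer LKO libraries (log2 fold change -1.0, SE 0.32, edgeR adjusted p = 0.142). C57BL/6 mice are known to carry a frameshift in Cxcl11 and to make no functional protein from it. Its reads may also be shared with Art3 and Gm2673, which overlap it on the other strand. Cxcl10 averaged 0.726 ± 0.165 CPM in Dicer LKO and 1.41 ± 1.03 CPM in the controls (SD, n = 3 each), with control replicate 2 at 2.59 CPM. Cxcl9 averaged 5.37 ± 2.4 CPM in Dicer LKO and 6.54 ± 4.56 CPM in the controls, also with its highest value, 11.8 CPM, in control replicate 2. Neither passed the test (adjusted p of 0.333 for Cxcl10 and 0.807 for Cxcl9, edgeR). Without control replicate 2, the value of Cxcl10 moved from -0.96 to -0.16 and that of Cxcl9 turned from -0.29 to 0.47. Cxcl9 also turned to 0.06 without Dicer LKO replicate 2. Its mean deposited TPM was 2.07 in Dicer LKO and 1.93 in the controls.

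Among ligands within the naming rule, Cxcl1 was the one of ELR type, the class that attracts neutrophils through Cxcr2, to pass the filter. It was found at 9.17, 16.6 and 12.3 CPM in Dicer LKO and at 11.3, 40.7 and 3.63 CPM in control livers. The controls thus spanned both sides of the Dicer LKO values. The log2 fold change of -0.55 (SE 0.83, edgeR adjusted p = 0.752) turned to 0.78 without control replicate 2.

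Cx3cl1, or fractalkine, had the lowest edgeR adjusted p of the family, while by DESeq2 those of Cxcl14 and Cxcr4 were lower. It is a membrane-bound ligand of epithelium and endothelium that holds cells bearing Cx3cr1, such as monocytes. Its counts were 28, 18 and 51 in Dicer LKO and 10, 7 and 4 in the controls, which is 1.28, 0.858 and 2.03 CPM in Dicer LKO against 0.451, 0.336 and 0.255 CPM in the controls. The groups did not overlap, and the mean was 1.39 ± 0.594 CPM in Dicer LKO and 0.347 ± 0.0983 CPM in the controls (SD, n = 3 each). The difference was 1.97 on the log2 scale (SE 0.45, adjusted p = 0.0773 by edgeR, 0.018 by DESeq2), and 1.59 to 2.26 without each library in turn. Its receptor Cx3cr1 lies outside the naming rule. Of 5 tested receptors in a list of 8 atypical and other chemokine receptors, edgeR called Cx3cr1 alone and DESeq2 called 2, Cx3cr1 and Ackr2. Cx3cr1 stood at 3.99, 4.67 and 5.14 CPM in Dicer LKO against 1.26, 0.768 and 1.08 CPM in the controls (log2 fold change 2.14, edgeR adjusted p = 0.0196). Of 6 bile duct markers, none at 0 in every library, 3 were called higher by edgeR (Spp1, Epcam and Cftr) and 5 by DESeq2, while Sox9 averaged 2.84 CPM in Dicer LKO and 4.19 CPM in the controls (log2 fold change -0.55, edgeR adjusted p = 0.463). Their summed CPM was 141 to 267 in Dicer LKO and 32 to 46.6 in control libraries, most of it from Spp1 (127 to 249 CPM in Dicer LKO and 24 to 40.9 CPM in the controls). Their part in the Cx3cl1 values was not tested.

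Among the CC ligands, 4 of the 9 tested had positive and 5 negative values. Ccl5, made by T and NK cells, stood at 0.734, 0.715 and 1.31 CPM in Dicer LKO against 0.27, 0.576 and 0.191 CPM in the controls. These ranges did not overlap (log2 fold change 1.38, SE 0.50, edgeR adjusted p = 0.176). Ccl6, a ligand of myeloid cells in rodents, stood at 12.8, 20.2 and 11.4 CPM in Dicer LKO and at 3.24, 11.4 and 3.06 CPM in control livers. Control replicate 2 and Dicer LKO replicate 3 were equal to 4 digits, at 11.43 CPM, so its groups touch. Its log2 fold change was 1.31 (SE 0.56, edgeR adjusted p = 0.247), and 2.25 with an adjusted p of 0.0478 without control replicate 2. Ccl24, an eosinophil attractant, averaged 1.52 ± 0.172 CPM in Dicer LKO and 0.943 ± 0.389 CPM in the controls (SD, n = 3 each), without overlap (0.67, edgeR adjusted p = 0.343). Ccl19, a ligand of Ccr7, had a log2 fold change of 1.12 (edgeR adjusted p = 0.320), from counts that were partly shared with near-identical copies.

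Lower values were found for the epithelial ligands Ccl25 and Ccl28, which share roles in lymphocyte homing to the gut and other mucosae. Ccl25 was at 5.64, 6.29 and 3.63 CPM in Dicer LKO against 6.63, 8.74 and 13.5 CPM in the controls. All Dicer LKO libraries were below all controls (log2 fold change -0.89, SE 0.31, edgeR adjusted p = 0.164). It overlaps Elavl1 on the other strand. Ccl28 had counts of 8, 4 and 5 in Dicer LKO and 14, 14 and 9 in the controls, again without overlap (-1.30, SE 0.43, edgeR adjusted p = 0.146). Ccl9 was at 46.7, 44.6 and 70.7 CPM in Dicer LKO against 72.2, 64.9 and 47 CPM in the controls, and the groups overlapped (-0.18, edgeR adjusted p = 0.691). Ccl27a, a skin-homing ligand, overlapped likewise (-0.19, edgeR adjusted p = 0.695), and its gene lies opposite Il11ra1. Ccl2, the main attractant of Ccr2-bearing monocytes, averaged 0.628 ± 0.383 CPM in Dicer LKO and 0.66 ± 0.593 CPM in the controls (SD, n = 3 each). Its log2 fold change was -0.08 (edgeR adjusted p = 0.964), and 1.01 without control replicate 2, which had 28 of the 40 control counts.

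**Figure D3:**
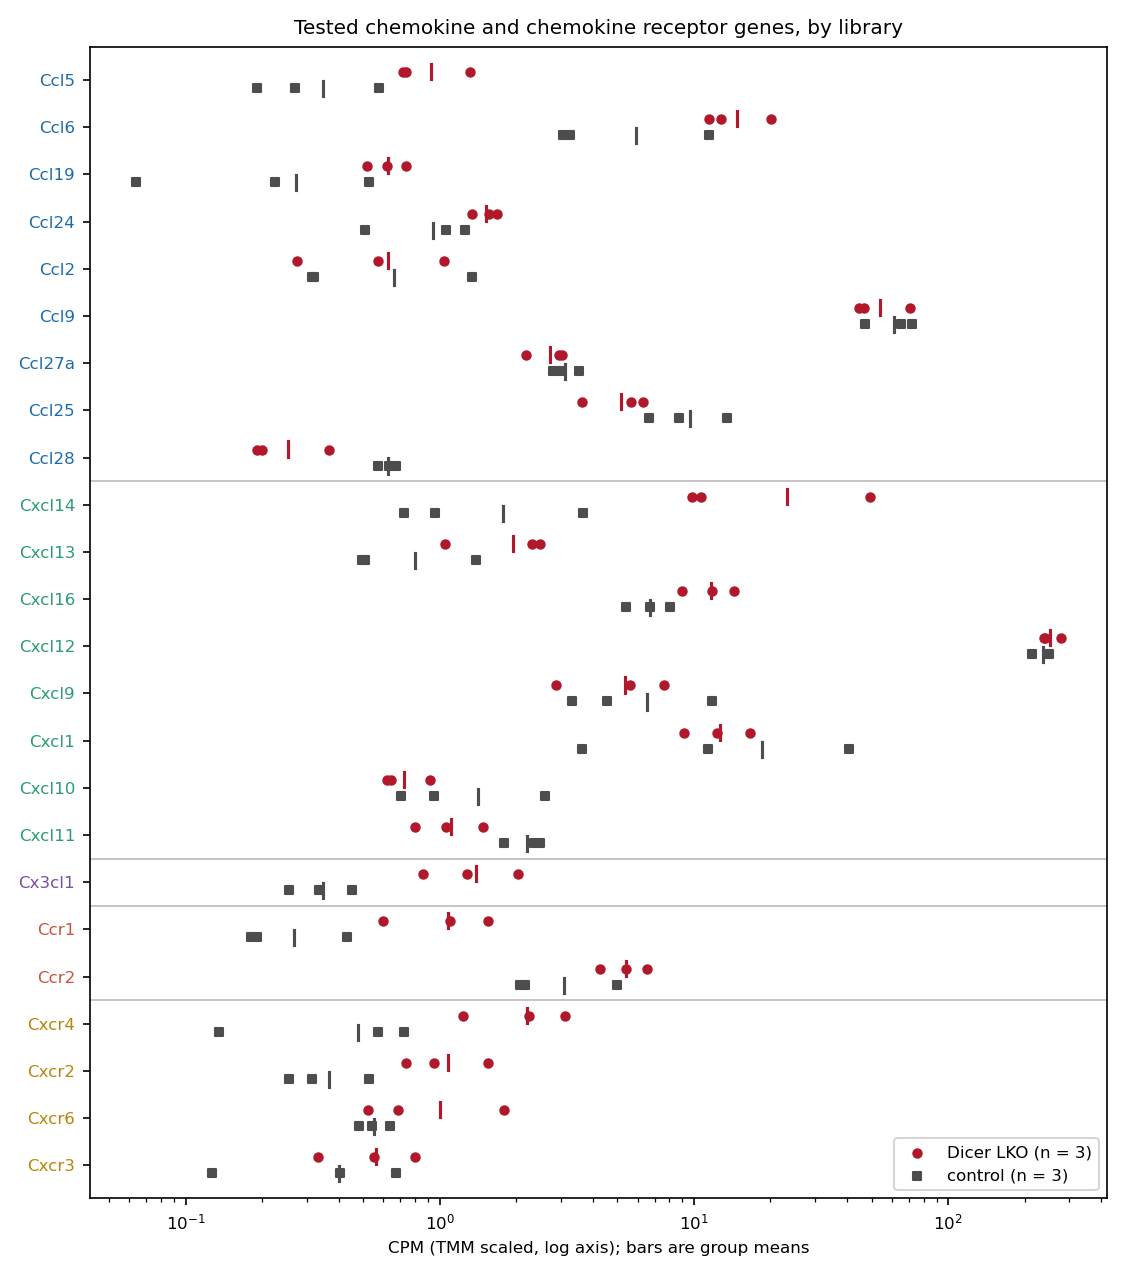
CPM (log axis) of 24 tested members in each library, with Dicer LKO libraries as red circles above control libraries as grey squares and bars at the group means. Cx3cl1, Ccr1, Cxcr4 and Cxcr2 show all red circles right of all grey squares, and Cxcl11, Ccl25 and Ccl28 the opposite order.

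The largest receptor difference was that of Cxcr4, the receptor of Cxcl12, which most white blood cells carry. It stood at 1.24, 2.24 and 3.11 CPM in Dicer LKO, against 0.135, 0.72 and 0.574 CPM in the controls, the first control value coming from 3 counts. All Dicer LKO libraries were higher, with a mean of 2.19 ± 0.935 CPM in Dicer LKO and 0.476 ± 0.304 CPM in the controls (SD, n = 3 each). Its log2 fold change was 2.22 (SE 0.58, adjusted p = 0.0955 by edgeR, 0.00985 by DESeq2), and 1.75 to 2.72 without each library in turn. Its ligand Cxcl12 had 0.09 on the same scale, and the difference between the 2 genes was not tested.

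Ccr1, a myeloid receptor for Ccl5, Ccl6 and Ccl9, was at 0.596, 1.1 and 1.55 CPM in Dicer LKO against 0.18, 0.432 and 0.191 CPM in the controls. Its ranges did not overlap (log2 fold change 1.98, SE 0.53, adjusted p = 0.0997 by edgeR, 0.0483 by DESeq2). Cxcr2, the neutrophil receptor for Cxcl1 and Cxcl2, was at 0.734, 0.953 and 1.55 CPM in Dicer LKO against 0.316, 0.528 and 0.255 CPM in the controls. It too was higher in all 3 Dicer LKO libraries (1.53, SE 0.46, edgeR adjusted p = 0.123). Dicer LKO replicate 3 was the highest library for Cxcr4, Ccr1 and Cxcr2 alike.

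Ccr2, the receptor of inflammatory monocytes, stood at 4.27, 6.53 and 5.42 CPM in Dicer LKO and at 2.07, 4.99 and 2.17 CPM in control livers. Control replicate 2 lay inside the Dicer LKO range (log2 fold change 0.80, SE 0.37, edgeR adjusted p = 0.260). Its deposited count held a fraction in 2 libraries, so some of its reads were assigned by a model. Cxcr6, the lymphocyte receptor of Cxcl16, was at 0.688, 0.524 and 1.79 CPM in Dicer LKO against 0.541, 0.48 and 0.638 CPM in the controls (0.88, edgeR adjusted p = 0.378). Dicer LKO replicate 2 lay inside the control range and replicate 3 far above it, and without replicate 3 the value was 0.14. Cxcr3, of T and NK cells, overlapped as well (0.44, edgeR adjusted p = 0.708).

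Markers of the white blood cells that carry these receptors were summed in the same libraries. All 8 monocyte and recruited macrophage markers were tested and had positive values, and 1 of them (Trem2, a receptor of lipid-laden macrophages) was called by edgeR and 5 by DESeq2. Of the 8, 6 were higher at an unadjusted p under 0.05, against 8.88% of all genes tested. The groups did not overlap for 5 of them, all higher, against 12.7%. The summed CPM of the 8 was 174 to 283 in Dicer LKO and 102 to 181 in control libraries, with overlap between the groups. Most of that sum came from Lyz2 and Csf1r, whose own values overlapped. The 10 neutrophil markers were all positive with 0 called by edgeR (4 at an unadjusted p under 0.05, 3 by DESeq2). Lcn2 dominates that sum and is also an acute phase gene of hepatocytes. Without it the sum of 9 was 41.3 to 94.2 CPM in Dicer LKO and 3.06 to 28.9 CPM in the controls. Of 12 T and NK cell markers 5 were tested, 0 were called by edgeR or DESeq2 (0 at an unadjusted p under 0.05), and the sum was 3.95 to 7.45 CPM in Dicer LKO and 3.19 to 5.47 CPM in the controls. The 6 Kupffer cell markers were positive with 0 called by edgeR (2 at an unadjusted p under 0.05, 1 by DESeq2), summing to 278 to 322 CPM in Dicer LKO and 132 to 318 CPM in the controls. Of 6 B cell markers 3 were tested, 2 positive and 1 negative, with 0 called by edgeR and 1 (Ighm) by DESeq2. The 6 summed to 9.49 to 13.1 CPM in Dicer LKO and 5.14 to 7.84 CPM in the controls, most of it from Ighm. Of 7 dendritic cell markers 4 were tested, 2 positive and 2 negative, with 0 called by edgeR or DESeq2 (2 at an unadjusted p under 0.05). Their sum was 12.8 to 16.5 CPM in Dicer LKO and 11.9 to 14.3 CPM in the controls. In none of these lists was a marker at 0 in every library. How far numbers of such cells set the chemokine receptor values was not tested.

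Individual libraries stood apart within their groups, as the heatmap of members and the bars of inflammatory genes show. Among the controls, replicate 2 was the highest for 16 of the 25 members, against 28.2% of all genes tested. Among the Dicer LKO libraries, replicate 3 was the highest for 14 of the 25, against 35.1% of all genes. The inflammatory ligands Cxcl1, Cxcl9, Cxcl10 and Ccl2 had their maximum over all 6 libraries in control replicate 2. That library also had 53500 summed CPM over 18 acute phase genes, against 21205 and 13796 in the other controls. Dicer LKO replicate 2 had the highest acute phase sum, 128584 CPM, against 57161 and 46148 in the other Dicer LKO libraries. Within its group that library was the highest for 6 of the 25 members, against 39.2% of all genes tested. Among them were Cxcl1, Cxcl14 and Ccl6, at 16.6, 49.1 and 20.2 CPM. Cxcl9 and Cxcl10 were lowest there, at 2.86 and 0.619 CPM. The part of the acute phase state of these libraries in the chemokine values was not tested. Without both libraries numbered 2, which left 2 libraries a group, the median of the 24 members then tested was 1.06. An unadjusted p under 0.05 was found for 15 of them. Over all genes the median was then 0.01, and 2500 of 14519 had an unadjusted p under 0.05. Cxcl14 alone was called there (log2 fold change 3.65, edgeR adjusted p = 0.0264). Leaving out control replicate 2 by itself lowers the control means of the 16 members for which it was the highest control. That holds for 28.2% of all genes, so the values over all genes are no like comparison. The numbers without both libraries are therefore a description and support no claim about the family.

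**Figure D4:**
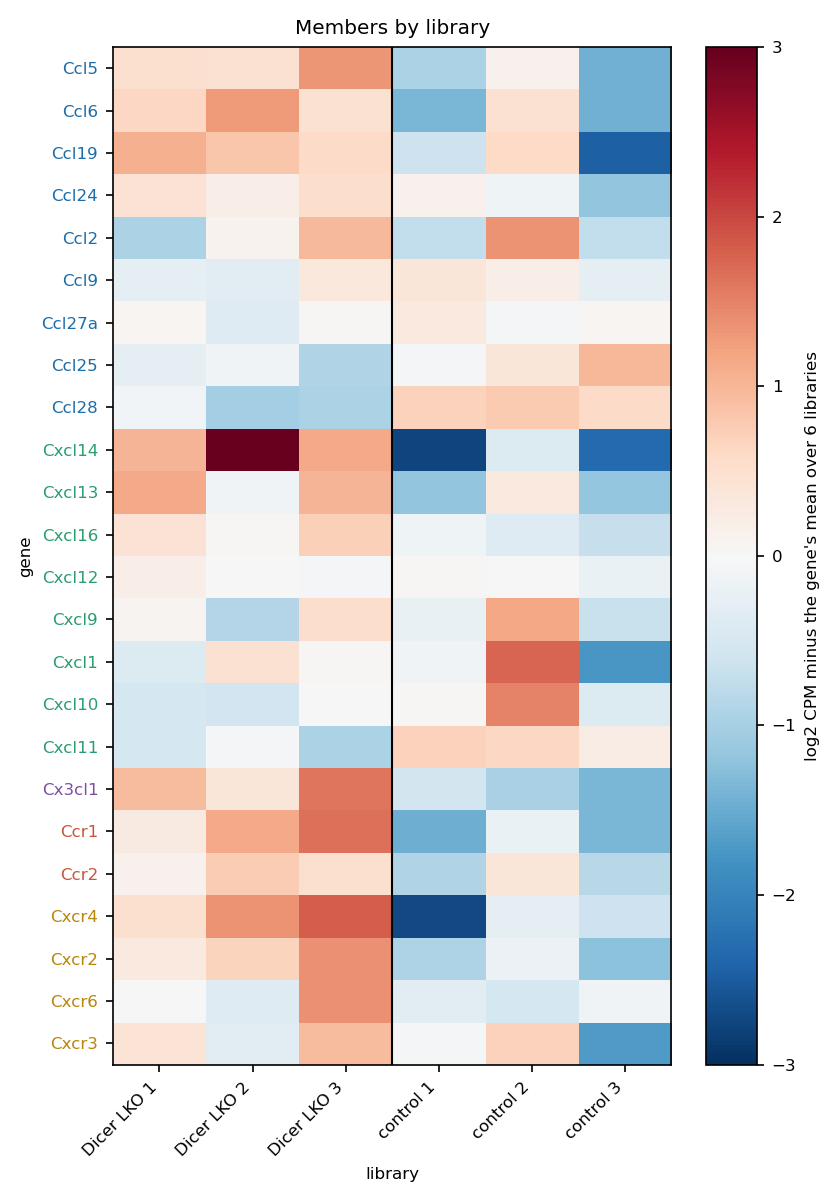
Log2 CPM of 24 tested members, each minus its own mean over the 6 libraries, with Dicer LKO libraries left of the line and controls right of it. Red is above the gene's mean and blue below, with the colours ending at 3 either way, and control replicate 2 is red for Cxcl1, Cxcl9, Cxcl10 and Ccl2, apart from the other controls.

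**Figure D5:**
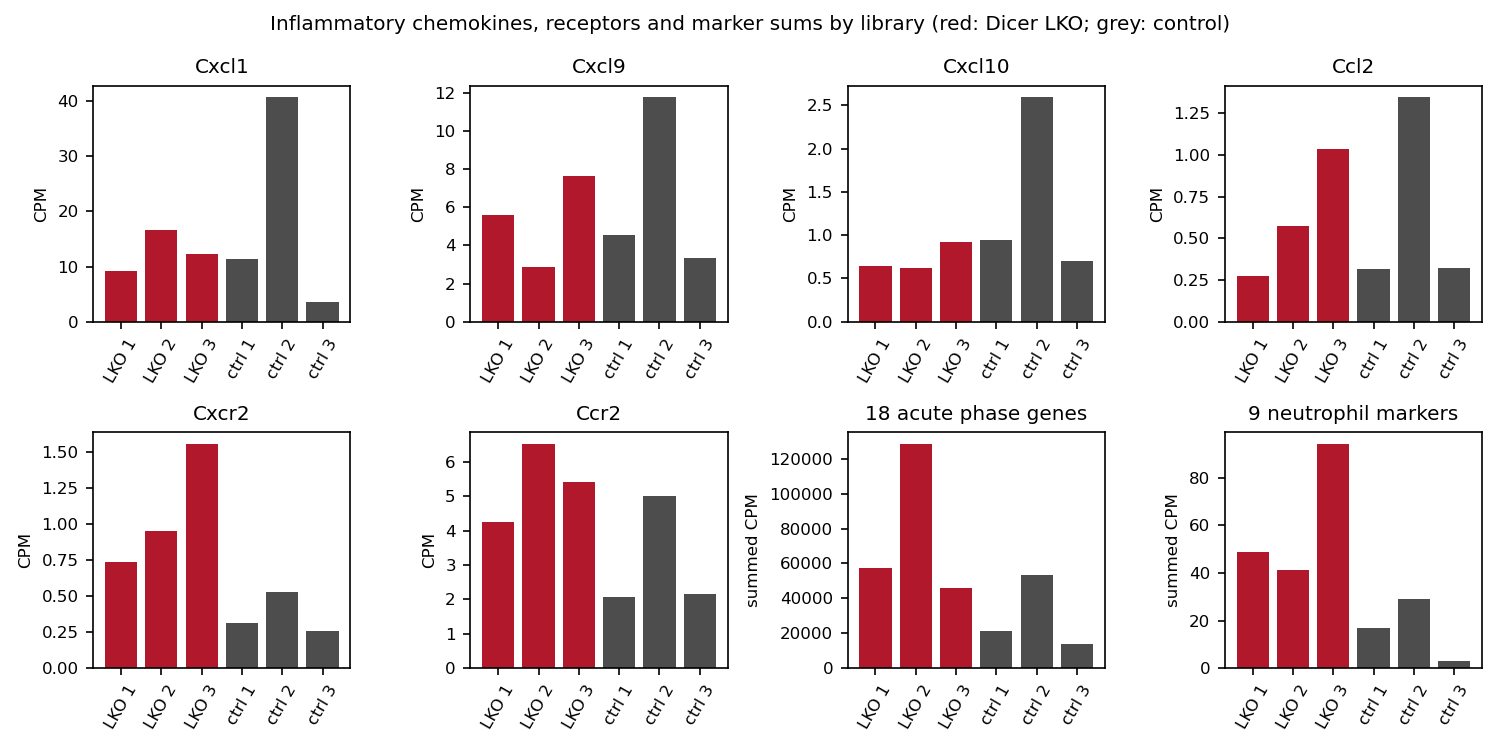
CPM of 4 inflammatory ligands and 2 receptors, with the summed CPM of 18 acute phase genes and of 9 neutrophil markers without Lcn2, per library (red for Dicer LKO, grey for control). Control replicate 2 holds the highest bar of each ligand, while for Cxcr2 all Dicer LKO bars exceed all control bars.

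Other genes of the pathway were taken from lists drawn up by function. Besides Cx3cr1, the scavenging receptor Ackr2, which clears inflammatory CC ligands, averaged 5.25 ± 2.14 CPM in Dicer LKO and 2.35 ± 0.466 CPM in the controls (SD, n = 3 each). Its log2 fold change of 1.16 was called by DESeq2 but not by edgeR (edgeR adjusted p = 0.106). The platelet chemokine Pf4 had a value of 1.28 (edgeR adjusted p = 0.111) and Ppbp, another, one of 0.79 (edgeR adjusted p = 0.387). Of 18 genes of receptor signalling, 12 were positive and 6 negative, with a median of 0.19 and 0 called by edgeR (2 at an unadjusted p under 0.05, 1 by DESeq2). Those 2 were Rgs2, which limits G protein signals, at 1.14 (edgeR adjusted p = 0.106), and the kinase Ptk2b at -0.54 (edgeR adjusted p = 0.116).

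Of 18 NF-kB inducible genes 14 were tested, and 0 were called by edgeR (5 at an unadjusted p under 0.05, of which 4 were higher, and 2 by DESeq2), with a median of 0.36. Relb, an NF-kB subunit, had the lowest p, at 1.21 (edgeR adjusted p = 0.0855). The adhesion molecule Vcam1 had a value of 0.95 (edgeR adjusted p = 0.117). Of 13 interferon inducible genes 12 were tested, with a median of 0.13 and 0 called by edgeR or DESeq2 (2 at an unadjusted p under 0.05). Irf8, a regulator of myeloid cells, was at 0.73 (edgeR adjusted p = 0.115). All 18 acute phase genes were positive with a median of 1.45, and 7 had an unadjusted p under 0.05. DESeq2 called 6 of them and edgeR 1, the transcription factor gene Cebpd (1.87, edgeR adjusted p = 0.0348).

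Because Dicer makes mature miRNAs, the longest annotated 3′ untranslated regions of the members were searched for miRNA sites. A site was a match to positions 2 to 8 of 8 miRNAs known to be abundant in liver. The 8 do not include every such miRNA, nor the most abundant one of hepatocytes. A match was present in 13 of the 25 tested members for at least 1 of the 8. The share of all genes with at least 1 was not counted, so the 13 is a description only. Cxcl12, with the long region of 5191 bases, held sites for let-7, miR-22 and miR-148a, and Cxcl16 held a let-7 site. Let-7 sites stood in 2 of 25 members, against 11.9% of the 12646 tested genes with such a region. Sites for miR-22 stood in 4 members, among them Ccl9, Cxcl9 and Cxcl12, against 17.7%, and sites for miR-148a in 4, against 16.7%. Sites for miR-192 stood in 2 members, against 7.46%, sites for miR-21a in 3, against 8.29%, and sites for miR-101a in 3, against 12%. For miR-26a and miR-30a no tested member held a site, against 11.8% and 16.6%. To let the pairing be read, let-7a and miR-22 are shown with the seed in capitals (RefSeq, GRCm38.p6). The let-7 sites and a part of the miR-22 sites of members follow, with the match in capitals (GENCODE M21 transcripts, GRCm38). The miR-22 site of Cxcl9 is among those not shown.
let-7a-5p: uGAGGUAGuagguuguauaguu
miR-22-3p: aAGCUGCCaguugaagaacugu
Cxcl16, let-7 site: accctttgcctCTACCTCctagattctgc
Cxcl12, let-7 site: gggtgaactacCTACCTCtcctcaagaca
Cxcl12, miR-22 site: gtccaggagaaGGCAGCTtcctatatgca
Ccl9, miR-22 site: cccacttagatGGCAGCTcaaactatcta
Of the 3 genes with a site shown, Cxcl16 had a log2 fold change of 0.80, Cxcl12 of 0.09 and Ccl9 of -0.18. None of the 3 was called by edgeR, while DESeq2 called Cxcl16 alone of them (DESeq2 adjusted p = 0.0423). The signs of Cxcl12 and Ccl9 turned in 1 alternative each, and that of Cxcl16 in 0. A match of letters does not show that a site is used, and no miRNA level was used here. Endothelial and stellate cells, known sources of Cxcl12, are not targets of the Cre. Whether loss of a miRNA had a part in these values was not tested.

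The 29 members without a test had few reads. No read was assigned in any library to Ccl1, Ccl26, Ccl27b, Cxcl3 or Cxcl15, and 3 counts per library, taken as the limit that a count of 0 allows, correspond to 0.12 to 0.135 CPM of the library total in Dicer LKO and 0.135 to 0.212 CPM in the controls. That limit covers counting error only. A further 18 members reached at most 5 counts in any library. These included the monocyte ligands Ccl7, Ccl8 and Ccl12, the macrophage ligands Ccl3 and Ccl4, and Cxcl5. Ccl12 had 1, 2 and 2 counts in Dicer LKO against 0 in each control, and Ccr10 2, 1 and 2 against 0, which are at or under that limit in every library. The last 6, with up to 16 counts, were Ccl21a, Cxcl2, Xcl1, Ccr7, Ccr9 and Cxcr5. Ccl21a, a ligand of Ccr7 made by lymphatic vessels, had 16 of its 21 control counts in replicate 3, and its reads are shared with near-identical copies such as Ccl21b. Cxcr5, a B cell receptor, had 3, 3 and 6 counts in Dicer LKO and 5, 7 and 7 in the controls. Ccr7, of dendritic and T cells, summed to 18 counts in each group.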

How the data were processed

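Liver RNA sequencing of 3 Dicer LKO and 3 control samples was analysed, grouped by the sample titles. The authors deposited per sample an expected count per gene (reads assigned by a model, not normalized) and a TPM value, per the file headers, whose columns are those of RSEM. CASAVA and Bowtie were used, per the submitters' processing notes, which name the human build hg19 although the gene identifiers are mouse. A mouse build and a strand setting were not given in these sources. Expected counts, of which 96.0% to 96.5% were whole, were rounded. They were filtered with filterByExpr, scaled with TMM and tested by edgeR 4.0.16 (glmQLFit robust, glmQLFTest, R 4.3.3) with 1 genotype term, and adjusted by Benjamini-Hochberg over all 14314 genes tested. TPM was used only for levels between genes. DESeq2 1.42.0, other scalings and filters, a replicate block and left-out libraries were alternatives. The fit was tested on simulated data. All 54 members matched GENCODE M21 (GRCm38) by identifier. Promoters and miRNAs came from RefSeq. The table of the whole series was not used here. The members and lists were chosen with earlier results of these data known. Values, per library or as group means with SD, were given for members with an unadjusted p under 0.05 or without overlap. The same was done for the 2 tested members with the highest TPM of each role group. Other members named were chosen after their values were seen. For 1 tested member, no value of its own is reported here.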

Additional observations from a re-analysis of the deposited data

How the results depend on the processing

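Of 25 tested members, 20 kept the sign of their log2 fold change in every one of the 14 alternatives in which they could be tested. Exceptions were Ccl2, Ccl9, Cxcl1, Cxcl9 and Cxcl12. Without each library in turn Cxcl1 lay between -1.03 and 0.78, turning to 0.78 without control replicate 2 and to 0.55 without both number 2 libraries, Ccl9 to 0.02 without both, and Cxcl12 to -0.03 with library totals, which moved the median of all genes by -0.12 on the log2 scale. The number of members called was 0 with edgeR and became 5 with DESeq2, 2 with the replicate block (Ccl6, Cxcl14) and 1 without both number 2 libraries, and was 0 to 1 without each library in turn. Over all genes, 185 were called. This became 1160 with DESeq2, 422 without a filter, 103 with library totals and 23 without both number 2 libraries, and 23 to 389 without each library in turn. Higher genes made up 57.3% of the 185, but 42.2% with DESeq2, 48.5% with library totals, 49.1% without a filter, 73.9% without both number 2 libraries and 19.5% to 82.1% without each library in turn. The cause of these shifts was not tested. Same-numbered libraries did not deviate together (correlations of 0.11, 0.06 and -0.10 for numbers 1, 2 and 3, where not every library correlated best with its own number), so the number was not taken as a pairing, and with it as a block 245 genes were called. Of the tested members, 3 were under 1 CPM in every library and rest on few counts.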
